A study of Homo sapiens with 12 samples.

Results

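The differences between 3 human multiple myeloma cell lines that remain under JQ1 are described from the 6 JQ1 libraries among the 12 RNA-seq libraries of the study. All libraries labelled with JQ1 were taken, 2 each from KMS-11, KMS-12 and RPMI8226, and each line was set against the mean of the other 2 lines. JQ1 had been added in DMSO at 1 µM for 72 h. The 6 control libraries, 2 from each line, received the same volume of DMSO, for a time that their labels do not give, and serve only as the reference for how far apart the lines stood without the compound. All cells are labelled wild type and were grown in RPMI-1640 medium with fetal bovine serum. Each line comes from 1 patient's tumour and carries its own translocations, so a line is 1 example of a myeloma type and not a replicate of it. The label KMS-12 does not say which of the sister lines of that name was used.

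JQ1 is a small molecule that competes with acetylated histone tails for the bromodomains of the BET proteins. These proteins sit at active promoters and enhancers and help RNA polymerase II into elongation. Myeloma cells are malignant plasma cells, and the enhancers that BET proteins occupy there include those of the immunoglobulin loci and of the oncogenes that translocations place beside them. KMS-11 is known to carry a t(4;14), which activates NSD2 and FGFR3, together with a t(14;16) that activates the transcription factor MAF. RPMI8226 is known for a MAF rearrangement with a light chain locus, and lines named KMS-12 for a t(11;14), which places CCND1 (cyclin D1) under an immunoglobulin enhancer.

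Total counts ran from 15424512 to 27366499 over the 12 libraries, and 20309 genes of 60666 passed the filter on low counts in the 6 JQ1 libraries. Levels are given in CPM, the counts divided by a library size that was scaled with TMM. Whether the 2 replicates of a group were separate cultures is not in the labels, and the p-values therefore reflect a spread between libraries that may be only technical. The 9 plasma cell markers examined had reads in each line under JQ1 and summed to between 2900 and 4010 CPM per library, while markers of B cells summed to between 0.266 and 5.92 CPM, those of T and NK cells to between 1.16 and 4.58 CPM and those of myeloid cells to between 0.125 and 3.02 CPM. MS4A1, a defining marker of B cells, was at 0 in KMS-11 and KMS-12. Stromal and epithelial markers summed to between 35.4 and 43.2 CPM in RPMI8226, through the keratin KRT18, and to between 4.52 and 5.79 CPM in the other lines. Under JQ1 the nuclear RNA MALAT1 took 25.7% and 25.8% of the counts in KMS-12, 16.5% and 14.5% in KMS-11 and 6.56% and 6.31% in RPMI8226. Its part in the scaling of other genes was not tested. When libraries were scaled by their size alone, the median of all genes moved by -0.43 in KMS-12 and by 0.43 in RPMI8226 on the log2 scale, so small differences are named with that alternative where it turns them.

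After 72 h of JQ1 the lines remained far apart, and genes at the known translocations were among those that differed between them. A gene was called for a line at an adjusted p under 0.05 (edgeR's quasi-likelihood F test with Benjamini-Hochberg adjustment over all genes tested, hereafter the edgeR adjusted p). It is said to mark a line where it was also called in the same direction, at 2-fold or more, against each of the other lines. At least 1 difference between lines was called for 16970 genes (83.6%), and 9953 genes (49%) marked a line. KMS-11 was marked by 2086 genes that were higher (10.3%) and 1741 that were lower (8.57%). For KMS-12 the numbers were 2105 higher (10.4%) and 2715 lower (13.4%). RPMI8226 had 2498 higher (12.3%) and 1184 lower (5.83%). Against the mean of the others alone, KMS-11 had 6924 genes higher and 5752 lower, KMS-12 6444 and 6838, and RPMI8226 7373 and 5350. Scaling by library size alone changed the split to 4100 higher and 9829 lower in KMS-12 and to 10591 higher and 2872 lower in RPMI8226.

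The KMS-11 programme under JQ1 included genes on the short arm of chromosome 4. The wider list of t(4;14) genes was not particular to this line. Of its 11 members tested, 7 were higher and 2 lower in KMS-11, beside 34.1% and 28.3% of all genes. In RPMI8226 6 were higher and 1 lower, beside 36.3% and 26.3%, and in KMS-12 2 and 8, beside 31.7% and 33.7%. The list marked KMS-11 with 3 genes higher and 1 lower, beside 10.3% and 8.57% of all genes. It marked RPMI8226 with 3 higher and 0 lower, beside 12.3% and 5.83%. FGFR3, a receptor tyrosine kinase (chromosome 4, 1793293 to 1808872, GRCh38), stood at 797 and 848 CPM in the KMS-11 libraries, without a read in KMS-12, and at 0.0832 and 0 CPM in RPMI8226. Both KMS-11 libraries were far above all others, at least 12100-fold over KMS-12 and 17600-fold (95% counting interval 4880 to 146000) over RPMI8226. NSD2, a histone H3 lysine methyltransferase (chromosome 4, 1871424 to 1982207), read 3560 and 5430 CPM in KMS-11, 145 and 145 in RPMI8226 and 85.4 and 93.8 in KMS-12. Its log2 difference in KMS-11 was 5.30 (SE 0.15, edgeR adjusted p = 7.22e-09), and no library of another line came near. UCHL1, a ubiquitin hydrolase encoded further along chromosome 4 (41256413 to 41268455), had 486 and 478 CPM in KMS-11 and no read in the other 4 libraries, a difference of at least 7090-fold over KMS-12 and 6910-fold over RPMI8226. KLHL29 and the cyclin-dependent kinase inhibitor CDKN2C behaved alike: KLHL29 read 163 and 169 CPM and CDKN2C 92.8 and 141 CPM in KMS-11, against a single CDKN2C read in KMS-12 and none elsewhere. Among long non-coding RNAs, MIAT stood at 1440 and 1350 CPM in KMS-11, 90.9 and 69.5 in RPMI8226 and 12.9 and 14.4 in KMS-12 (log2 difference 5.40, SE 0.11, edgeR adjusted p = 2.44e-12).

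Among the genes lowest in KMS-11 was CD38, the surface ectoenzyme targeted by therapeutic antibodies. It read 0.851 and 0.493 CPM there, 78.9 and 87.9 in RPMI8226 and 252 and 207 in KMS-12, so that the 3 lines did not overlap (log2 difference in KMS-11 -7.65, SE 0.19, edgeR adjusted p = 1.33e-11). The zinc finger genes ZNF493 and ZNF681 had no read in KMS-11 and were at least 762-fold and 691-fold higher in RPMI8226. FADS2, a fatty acid desaturase, read 2.09 and 1.53 CPM in KMS-11 and at least 111 CPM in each other library (log2 difference -6.03, SE 0.16, edgeR adjusted p = 9.16e-12).

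KMS-12 was marked by CCND1 and its neighbour MYEOV, but not by the wider list of t(11;14) and B lineage genes. Of the 11 list members tested, 2 were higher and 6 lower in KMS-12 (median -1.93), beside 31.7% and 33.7% of all genes. In RPMI8226 6 were higher and 4 lower (median 1.98), beside 36.3% and 26.3%. CCND1 (chromosome 11, 69641087 to 69654474), the cyclin that partners CDK4 and CDK6 in G1, read 290 and 280 CPM in KMS-12, 20.3 and 18.6 in KMS-11 and 11.9 and 9.94 in RPMI8226. Both KMS-12 libraries lay above the others, with a log2 difference of 4.29 (SE 0.08, edgeR adjusted p = 8.1e-13). MYEOV (69294138 to 69367726) read 644 and 616 CPM in KMS-12 and at most 6.51 CPM elsewhere (log2 difference 7.35, SE 0.19, edgeR adjusted p = 7.74e-08). SPN, the sialoglycoprotein CD43 of leukocytes, stood at 413 and 433 CPM in KMS-12, without a read in KMS-11, and at 0.208 and 0.582 CPM in RPMI8226. GLDC, the glycine-cleaving decarboxylase of mitochondria, read 837 and 862 CPM in KMS-12, 2.38 and 2.56 in KMS-11 and 0.0416 and 0 in RPMI8226. In the controls GLDC averaged 222 CPM in KMS-12, and it was a KMS-12 gene in both conditions. SOCS2, a brake on cytokine signalling, read 147 and 143 CPM in KMS-12 and at most 1.06 CPM elsewhere (log2 difference 7.46, SE 0.13, edgeR adjusted p = 6.53e-13). The glutathione transferase GSTP1 stood at 287 and 332 CPM in KMS-12, at 1.49 and 3.11 in KMS-11 and at 0 and 0.0529 in RPMI8226. LINC02334, a long non-coding RNA, had 98.9 and 97.9 CPM in KMS-12 and no read in the other lines, at least 1440-fold over KMS-11 and 1410-fold over RPMI8226.

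What KMS-12 lacked was the MAF programme that the other lines share. MAF itself (chromosome 16, 79585843 to 79600714, minus strand) read 1130 and 976 CPM in KMS-11, 1100 and 813 in RPMI8226, and 0.0886 and 0 in KMS-12. KMS-11 and RPMI8226 overlapped, and both lay far above KMS-12, by 23400-fold (95% counting interval 6470 to 193000) and 21500-fold (5950 to 178000). CCND2, the D-type cyclin that MAF activates, followed the same pattern with 1210 and 1910 CPM in KMS-11, 1100 and 1090 in RPMI8226, and 0.0443 and 0.0465 in KMS-12. The integrin subunit ITGB7, another MAF target, read 1310 and 2480 CPM in KMS-11, 6370 and 5480 in RPMI8226 and 6.43 and 6.32 in KMS-12 (log2 difference in KMS-12 -9.04, SE 0.46, edgeR adjusted p = 4.05e-05). Of the 16 MAF targets and associated genes listed, 13 could be tested under JQ1: none was higher in KMS-12 and 10 were lower, while 9 were higher and 1 lower in RPMI8226, and 7 were higher and 1 lower in KMS-11. Over all genes tested, 31.7% were higher and 33.7% lower in KMS-12, 36.3% and 26.3% in RPMI8226, and 34.1% and 28.3% in KMS-11. The list's median log2 difference in KMS-12 was -8.99, or -5.89 with genes lacking reads set at their bounds, against -0.09 for all genes. In the DMSO libraries 11 of 14 tested members were lower in KMS-12 and none was higher, where 30.7% of all genes were lower and 31.6% higher. Vimentin, the intermediate filament VIM, read 2480 and 2740 CPM in KMS-11, 388 and 436 in RPMI8226 and none in KMS-12.

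RPMI8226 was marked by a mixed set. LAMB3, a laminin chain (chromosome 1, 209614870 to 209652466, minus strand), read 139 and 210 CPM in RPMI8226, 0.17 and 0.0986 in KMS-11 and none in KMS-12. Its DMSO mean in RPMI8226 was 1370 CPM, yet the line stood at least 2500-fold over KMS-12 under JQ1. G0S2, an inhibitor of fat breakdown encoded nearby on chromosome 1 (209675420 to 209676388), had 108 and 113 CPM in RPMI8226 and no read elsewhere. The serine synthesis enzyme PSAT1 read 122 and 205 CPM in RPMI8226, 1.87 and 0.493 in KMS-11 and 1.02 and 2.23 in KMS-12, with a log2 difference of 6.86 (SE 0.49, edgeR adjusted p = 0.000859). RPMI8226 was also highest among the DMSO means of 218, 7.49 and 22.2 CPM, and its difference from the other lines was larger under JQ1 by 2.77 on the log2 scale (edgeR adjusted p of the interaction = 0.0119). DENND3, a regulator of vesicle traffic, read 104 and 111 CPM in RPMI8226 and at most 1.13 CPM elsewhere (log2 difference 7.98, SE 0.14, edgeR adjusted p = 4.54e-13). Of the genes lowest in RPMI8226, the DNA demethylation enzyme TET1 read 0.208 and 0.423 CPM there, 53.9 and 56.4 in KMS-11 and 80.9 and 76.6 in KMS-12 (log2 difference -7.74, SE 0.18, edgeR adjusted p = 5.66e-12). ABHD17B, a depalmitoylating enzyme, had no read in RPMI8226 and was at least 691-fold higher in KMS-11 and 727-fold higher in KMS-12. Among long non-coding RNAs, LINC01287 stood at 1030 and 990 CPM in RPMI8226, 15.2 and 12.8 in KMS-12 and 0 in KMS-11, and LINC01229 at 400 and 343 CPM in RPMI8226, 0.553 and 1.18 in KMS-11 and 0 in KMS-12.

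**Figure D1:**
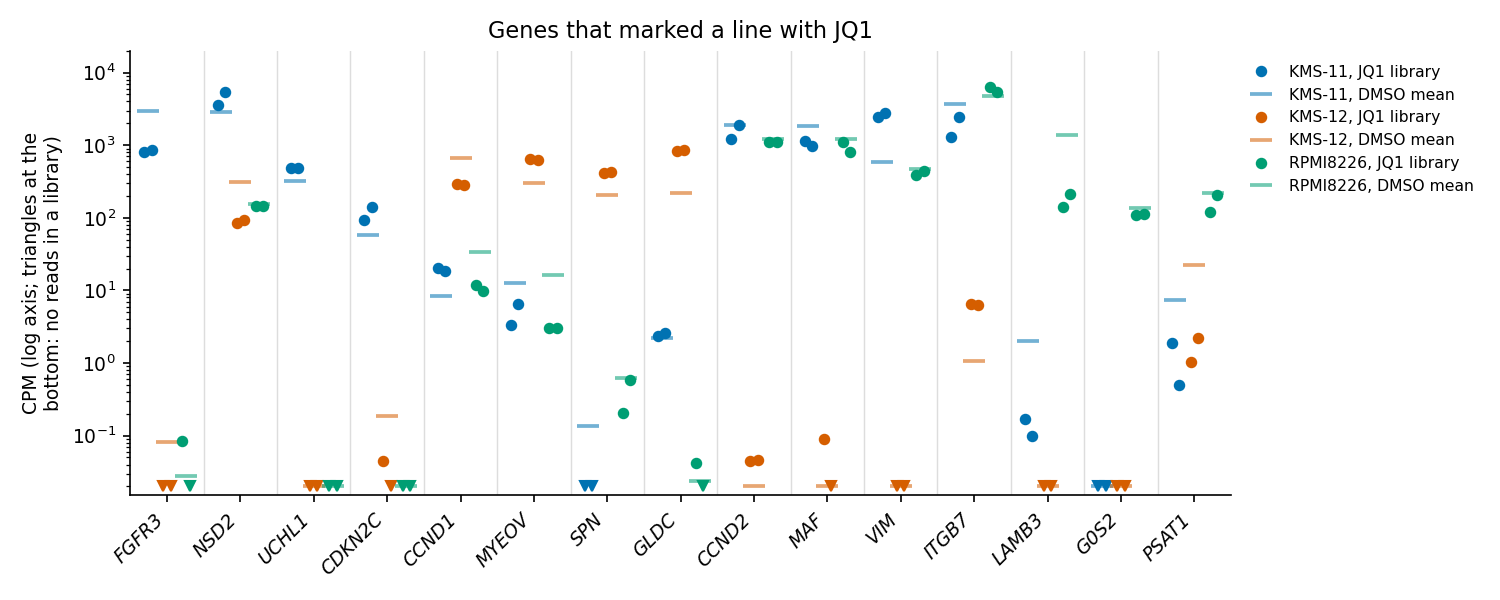
Levels of 15 line-marking genes in CPM (log axis), with a dot for each JQ1 library, a dash for the mean of the 2 DMSO libraries of that line and a triangle at the bottom where a library had no read. FGFR3, NSD2, UCHL1 and CDKN2C stand highest in KMS-11, CCND1, MYEOV, SPN and GLDC in KMS-12, and LAMB3, G0S2 and PSAT1 in RPMI8226, while CCND2, MAF, VIM and ITGB7 are all but missing from KMS-12.

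Plasma cell identity was shared in outline and uneven in detail. IRF4, the factor on which myeloma cells depend, read 569 and 693 CPM in KMS-11, 499 and 559 in RPMI8226 and 2080 and 2140 in KMS-12, so KMS-12 stood apart (log2 difference 1.87, SE 0.09, edgeR adjusted p = 1.42e-09). PRDM1, the plasma cell repressor BLIMP1, was lowest in RPMI8226 at 127 and 115 CPM, against 334 and 477 in KMS-11 and 779 and 769 in KMS-12 (log2 difference -2.21, SE 0.14, edgeR adjusted p = 7.99e-07). POU2AF1, a coactivator of immunoglobulin promoters, read 540 and 655 CPM in KMS-11, 94.1 and 94.9 in RPMI8226 and 1.11 and 1.16 in KMS-12. Its DMSO means were 310 CPM in KMS-11, 355 in RPMI8226 and 6.58 in KMS-12, and the KMS-11 difference was 3.16 larger under JQ1 on the log2 scale. Of 26 plasma cell identity genes, 11 were higher and 11 lower in KMS-11, 12 and 12 in RPMI8226 and 10 and 12 in KMS-12. The all-gene shares were 34.1% and 28.3%, 36.3% and 26.3%, and 31.7% and 33.7% in the same order. The list's medians were -0.11, 0.76 and -0.34, against all-gene medians of 0.04, 0.09 and -0.09 (0.03, 0.07 and -0.03 in DMSO). In DMSO the same list had 18 higher and 5 lower in KMS-11, where 31% of all genes were higher and 25.8% lower. It had 8 higher and 17 lower in KMS-12, beside 31.6% and 30.7%. Among immunoglobulin constant genes, IGKC read 11900 and 13800 CPM in KMS-11, IGHD 5960 and 6600 CPM in KMS-12, and IGLC2 1580 and 1720 CPM in RPMI8226. Each of these 3 genes was at most at 49.2 CPM in the libraries of the other lines, and near-identical copies make the split of reads among light chain genes uncertain.

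In the BCL2 family, which governs apoptosis, at least 1 difference between lines was called for 10 of the 14 genes tested, beside 83.6% of all genes. Of them 4 were higher and 3 lower in KMS-12, beside 31.7% and 33.7% of all genes. The family's median in KMS-12 was 0.20, or -0.23 with scaling by library size alone. BCL2 itself, an anti-apoptotic protein bound by venetoclax, stood at 1800 and 1820 CPM in KMS-12, 147 and 130 in KMS-11 and 383 and 333 in RPMI8226, with no overlap between lines (log2 difference in KMS-12 3.02, SE 0.08, edgeR adjusted p = 1.07e-11). MCL1, its relative on which plasma cells depend, read 2100 and 1870 CPM in KMS-12, 912 and 1020 in KMS-11 and 460 and 387 in RPMI8226. The order was otherwise in DMSO, where MCL1 averaged 367 CPM in KMS-12, 477 in KMS-11 and 741 in RPMI8226, and the KMS-12 difference was 2.34 larger under JQ1 on the log2 scale. MYC, a gene widely used to follow BET inhibition, read 324 and 212 CPM in KMS-11, 306 and 278 in RPMI8226 and 180 and 169 in KMS-12. The lower level in KMS-12 (log2 difference -0.68, SE 0.17, edgeR adjusted p = 0.0114) was not called without replicate 2 of KMS-12 (edgeR adjusted p = 0.0699), without replicate 1 of RPMI8226 (edgeR adjusted p = 0.0945) or without replicate 2 of RPMI8226 (edgeR adjusted p = 0.0721). FLI1, an ETS transcription factor, read 47.5 and 58 CPM in KMS-11, 48.3 and 41.9 in RPMI8226 and 64.6 and 64.9 in KMS-12. Its difference in KMS-12 was 0.41 (SE 0.10, edgeR adjusted p = 0.00212) and turned to -0.02 with scaling by library size alone.

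Cell division genes, few of which were called between lines in DMSO, separated RPMI8226 from the other lines under JQ1. In RPMI8226, 38 of 40 mitosis genes were higher than in the other lines under JQ1 and none was lower, with a median log2 difference of 3.64, and all 38 marked the line. In DMSO none of the 40 was higher in RPMI8226 and 4 were lower (median -0.64), where 33.3% of all genes were higher and 23.6% lower. Over all genes under JQ1, 36.3% were higher and 26.3% lower in RPMI8226, 34.1% and 28.3% in KMS-11 and 31.7% and 33.7% in KMS-12. RPMI8226 was marked by 12.3% of all genes as higher. Under JQ1, KMS-11 had 1 of the 40 higher and 35 lower (median -2.38) and KMS-12 none higher and 24 lower (median -1.15). The replicates of KMS-12 differed here, with most named genes higher in replicate 2. The KMS-12 count of lower genes was 21 without its replicate 1 and 36 without its replicate 2. RPMI8226 kept 36 to 38 genes higher whichever JQ1 library was left out. The change of the line difference between conditions (the interaction, edgeR) was called upward for 39 of the 40 in RPMI8226 and downward for none, beside 8.56% and 7.03% of all genes. In bulk RNA, fewer dividing cells and less RNA in each cannot be told apart.

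Many mitotic promoters carry a CHR element (TTTGAA, the cell cycle genes homology region), bound by the DREAM and MuvB complexes, with CCAAT boxes upstream that bind NF-Y. Shown as examples are the 250 bases before the RefSeq start of 4 mitosis genes, picked from those named among the results. All 4 hold both motifs, which 18 of the 33 mitosis promoters in the RefSeq table do. CCNA2 and KIF20A, not shown, hold CCAAT without TTTGAA. Every TTTGAA and CCAAT match on either strand is in capitals (GRCh38.p14, 5′ to 3′ on the strand of the gene).
CCNB2, chr15:59104896-59105145, plus strand: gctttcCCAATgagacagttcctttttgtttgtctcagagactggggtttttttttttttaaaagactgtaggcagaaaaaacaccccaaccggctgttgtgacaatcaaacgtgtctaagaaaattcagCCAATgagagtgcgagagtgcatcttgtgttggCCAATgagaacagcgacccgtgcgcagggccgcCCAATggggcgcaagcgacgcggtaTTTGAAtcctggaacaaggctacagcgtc
PLK1, chr16:23678639-23678888, plus strand: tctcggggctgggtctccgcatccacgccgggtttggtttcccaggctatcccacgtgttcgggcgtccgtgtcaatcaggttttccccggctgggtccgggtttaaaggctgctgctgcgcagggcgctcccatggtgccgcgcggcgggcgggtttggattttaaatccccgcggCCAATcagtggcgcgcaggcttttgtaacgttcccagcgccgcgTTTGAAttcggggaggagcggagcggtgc
CDK1, chr10:60778081-60778330, plus strand: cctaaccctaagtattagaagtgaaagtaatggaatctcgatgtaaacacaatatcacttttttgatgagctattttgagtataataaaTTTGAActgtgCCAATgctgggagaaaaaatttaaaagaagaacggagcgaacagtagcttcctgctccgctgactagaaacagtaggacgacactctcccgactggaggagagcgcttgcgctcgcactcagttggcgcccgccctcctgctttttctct
DLGAP5, chr14:55191586-55191835, minus strand: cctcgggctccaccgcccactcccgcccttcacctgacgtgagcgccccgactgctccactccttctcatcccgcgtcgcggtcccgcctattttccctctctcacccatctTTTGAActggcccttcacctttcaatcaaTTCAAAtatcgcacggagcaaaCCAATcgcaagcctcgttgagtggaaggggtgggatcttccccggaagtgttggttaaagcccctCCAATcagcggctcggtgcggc
The CHR letters occurred in 20 of the 33 mitosis promoters in the RefSeq table (60.6%), in 1 of 39 replication promoters (2.56%), in 8.8% of the 11876 promoters of genes tested and in 13.6% of all 27305 promoters of the same length. CCAAT occurred in 27 of the 33 (81.8%), against 35.5% for genes tested and 33.0% of all promoters. Both occurred in 18 (54.5%), against 3.66% and 4.85%. Of the 1416 promoters of genes that marked RPMI8226 as higher, 12.2% held the CHR letters, which lies between the shares for genes tested and for all promoters. In the printed promoters CCAAT lay upstream of TTTGAA in CCNB2 and PLK1, but downstream of it in CDK1 and DLGAP5. A match describes the sequence and does not show that a factor was bound.

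The genes behind these promoters ranked alike. CCNB2, a mitotic cyclin, read 34.2 and 24.4 CPM in RPMI8226, 1.02 and 1.68 in KMS-11 and 1.73 and 3.67 in KMS-12 under JQ1. Both RPMI8226 libraries lay above all others (log2 difference 3.95, SE 0.27, edgeR adjusted p = 2.09e-06), although the DMSO means were 24.3, 29.3 and 37.2 CPM, lowest in RPMI8226. CDK1, the mitotic kinase, stood at 34.1 and 30.8 CPM in RPMI8226, 0.894 and 1.04 in KMS-11 and 1.02 and 3.86 in KMS-12 (log2 difference 4.41, SE 0.41, edgeR adjusted p = 0.000234). PLK1, a kinase of spindle assembly, read 41 and 29.8 CPM in RPMI8226, 3.41 and 2.47 in KMS-11 and 4.87 and 6.92 in KMS-12 (log2 difference 3.09, SE 0.18, edgeR adjusted p = 3.35e-08). For DLGAP5, a microtubule-binding protein of the spindle, the values were 23.1 and 17.6 CPM in RPMI8226, 0.809 and 1.43 in KMS-11 and 0.753 and 1.35 in KMS-12. In all 4 genes RPMI8226 under JQ1 was closer to its DMSO mean than the other lines were to theirs. MKI67, the Ki-67 antigen of cycling cells, read 112 and 90.4 CPM in RPMI8226, 22.9 and 14.8 in KMS-11 and 5.05 and 15.4 in KMS-12 (log2 difference 2.87, SE 0.49, edgeR adjusted p = 0.0134). An exception was UBE2C, the ubiquitin-conjugating enzyme of the anaphase-promoting complex, which read between 0.444 and 1.07 CPM in all 6 JQ1 libraries with no difference called between lines (edgeR adjusted p = 0.891). BUB3, a checkpoint protein, was the other of the 40 that was not higher in RPMI8226, at 86.6 and 83.5 CPM there against 113 and 116 in KMS-11 and 54.4 and 57.4 in KMS-12.

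DNA replication genes followed the same order. The all-gene shares under JQ1 were 36.3% higher and 26.3% lower in RPMI8226, 34.1% and 28.3% in KMS-11 and 31.7% and 33.7% in KMS-12. In RPMI8226, 42 of 47 replication genes were higher and 2 lower (median 1.68). In DMSO 6 were higher and 9 lower there, beside 33.3% and 23.6% of all genes. Under JQ1 the other lines stood lower. KMS-11 had 3 higher and 40 lower (median -1.15) and KMS-12 9 higher and 28 lower (median -0.63), and the KMS-12 count ran from 21 without its replicate 1 to 30 without its replicate 2. RRM2, a subunit of ribonucleotide reductase, read 240 and 238 CPM in RPMI8226, 1.87 and 2.22 in KMS-11 and 4.12 and 13.8 in KMS-12 (log2 difference 5.81, SE 0.51, edgeR adjusted p = 0.00202). Its DMSO mean in RPMI8226 was 81.8 CPM, beside 82.9 in KMS-12 and 168 in KMS-11. MCM6, a subunit of the replicative helicase, read 122 and 140 CPM in RPMI8226, 15.1 and 15.2 in KMS-11 and 36.6 and 39.1 in KMS-12 (log2 difference 2.45, SE 0.08, edgeR adjusted p = 8.24e-11). CDC45, which joins that helicase, went from lower in RPMI8226 in DMSO (log2 difference -1.23) to higher under JQ1 (4.59, SE 0.34, edgeR adjusted p = 1.35e-07), with 6.45 and 6.19 CPM against at most 0.558 in the other lines. CCNE2, a cyclin of the G1 to S transition, broke the pattern: it was highest in KMS-11 at 43 and 50.7 CPM, with 17.9 and 21.8 in RPMI8226 and 5.54 and 5.62 in KMS-12.

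Histone genes of the replication-dependent clusters went with them in RPMI8226. There 36 of 45 were higher and 4 lower (median 1.78), beside 36.3% and 26.3% of all genes. In DMSO 1 was higher and 21 lower in that line (median -1.38), beside 33.3% and 23.6%. In KMS-12 24 had been higher in DMSO, beside 31.6% of all genes. Under JQ1 8 were higher and 28 lower in KMS-12 (median -0.83), beside 31.7% and 33.7%. H2BC7 read 84.9 and 68.7 CPM in RPMI8226, 19.2 and 17.2 in KMS-11 and 9.66 and 8.83 in KMS-12, so that the lines did not overlap (log2 difference 2.57, SE 0.1, edgeR adjusted p = 4.4e-10). In contrast H1-5 and H3C7 had no read in RPMI8226 and between 2.56 and 9.11 CPM elsewhere. Histone genes have near-identical copies, and how the authors' counting split reads between them is not given in the sources used here.

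The inhibitors of the cell cycle named here did not share an order among the lines. CDKN1A, the inhibitor p21, read 27.9 and 22 CPM in KMS-11, 111 and 99.4 in RPMI8226 and 225 and 230 in KMS-12, with KMS-12 highest (log2 difference 2.15, SE 0.09, edgeR adjusted p = 3.36e-10). In DMSO its means were 48.5 CPM in KMS-11, 127 in RPMI8226 and 13.1 in KMS-12, the lowest, and CDKN1A is 1 of 26 genes that marked a line in opposite directions in the 2 conditions. CDKN1B, the inhibitor p27, was highest in KMS-11, at 379 and 431 CPM against 95.8 and 77.1 in RPMI8226 and 112 and 116 in KMS-12. That is the reverse of the order of the mitosis medians. CDKN2C, given above, was also highest in KMS-11. CCND3, the remaining D-type cyclin, was low everywhere, between 11 and 18.3 CPM, and KMS-12 and RPMI8226 overlapped.

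**Figure D2:**
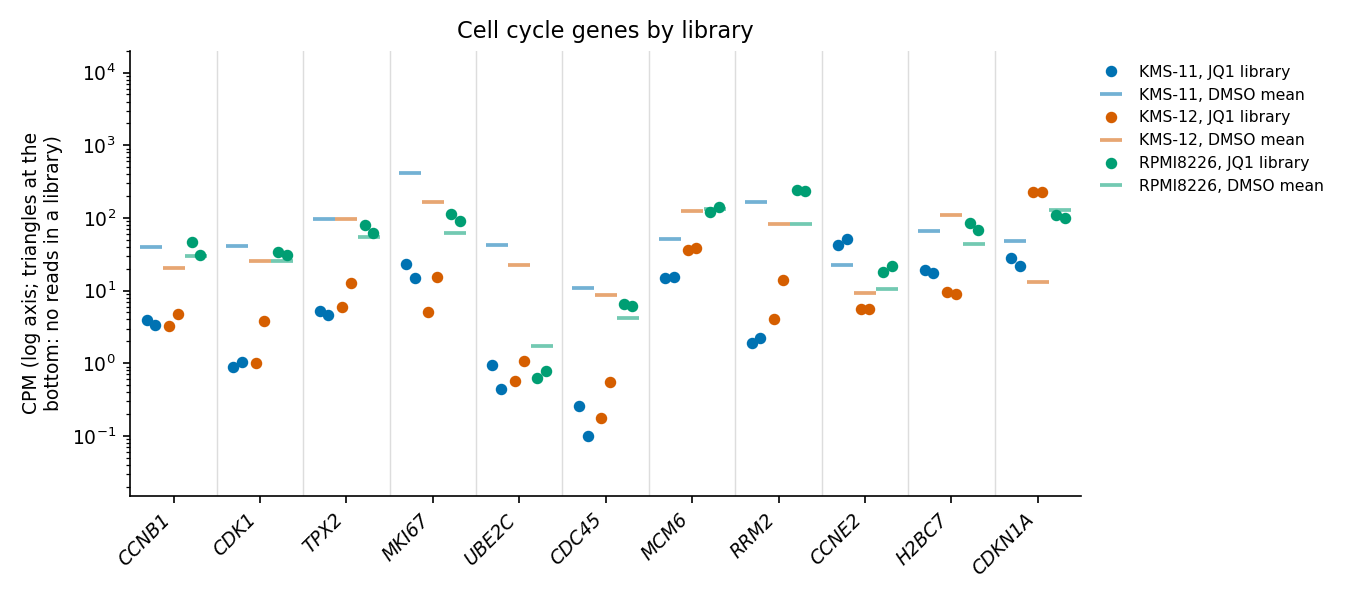
Levels of 11 cell cycle genes in CPM (log axis), with a dot for each JQ1 library and a dash for the DMSO mean of the line. For CCNB1, CDK1, TPX2, MKI67, CDC45, MCM6, RRM2 and H2BC7 the RPMI8226 dots lie above those of the other lines, UBE2C is low in every line, CCNE2 is highest in KMS-11 and CDKN1A in KMS-12.

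Secretory and lipid genes changed the rank of KMS-12. HSPA5, the chaperone BiP of the endoplasmic reticulum, read 1420 and 1630 CPM in KMS-12, 365 and 449 in KMS-11 and 574 and 591 in RPMI8226 (log2 difference in KMS-12 1.64, SE 0.09, edgeR adjusted p = 6.16e-09), whereas its DMSO mean was lowest in KMS-12, 586 CPM against 1200 and 1080. P4HB, a disulfide isomerase, showed the same turn, with 2800 and 2990 CPM in KMS-12 under JQ1 against at most 785 in the other lines, and a KMS-12 DMSO mean of 799 against 1800 in KMS-11 and 1170 in RPMI8226. In KMS-12 31.6% of all genes were higher and 30.7% lower in DMSO, and 31.7% and 33.7% under JQ1. Of 35 unfolded protein response genes, 6 were higher and 22 lower in KMS-12 in DMSO (median -0.83), and 20 were higher and 10 lower under JQ1 (median 0.38). With scaling by library size alone the JQ1 count became 12 higher and 14 lower (median -0.05), so the direction of the list's level under JQ1 rests on the scaling. The change from DMSO to JQ1 was called upward in KMS-12 for 22 of the 35 and downward for 2, beside 11.7% and 11.8% of all genes, and for 16 and 7 with scaling by library size alone.

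Cholesterol synthesis genes shifted likewise, against all-gene shares in KMS-12 of 31.6% higher and 30.7% lower in DMSO and 31.7% and 33.7% under JQ1. Of 31, KMS-12 had 3 higher and 22 lower in DMSO (median -0.79) and 17 higher and 4 lower under JQ1 (median 0.49, or 0.05 with scaling by library size alone), and the change was called upward for 26 and downward for 1 (19 and 2 with that scaling). SQLE, a rate-controlling epoxidase of the pathway, read 119 and 137 CPM in KMS-12, 11.5 and 15.2 in KMS-11 and 34.6 and 35.2 in RPMI8226 (log2 difference 2.57, SE 0.1, edgeR adjusted p = 2.43e-10). KMS-11 stood lowest in this pathway under JQ1, with 5 genes higher and 18 lower (median -0.83), beside 34.1% and 28.3% of all genes. Lysosome genes also moved, from 7 of 39 higher and 21 lower in KMS-12 in DMSO to 21 of 38 higher and 7 lower under JQ1 (13 and 16 with scaling by library size alone). Ferritin light chain FTL, an iron store, read 8140 and 9690 CPM in KMS-12 and at most 1920 CPM elsewhere.

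Glycolysis and hypoxia genes kept KMS-12 at the bottom. Under JQ1, 3 of 30 were higher and 21 lower in KMS-12 (median -1.50), beside 2 higher and 26 lower in DMSO (median -2.1). The all-gene shares in KMS-12 were 31.7% higher and 33.7% lower under JQ1, and 31.6% and 30.7% in DMSO. GPI, a phosphosugar isomerase of glycolysis, read 31.9 and 30.2 CPM in KMS-12, 210 and 195 in KMS-11 and 656 and 640 in RPMI8226. NDRG1, a hypoxia-induced gene, stood at 8.6 and 8.46 CPM in KMS-12, 237 and 222 in KMS-11 and 257 and 278 in RPMI8226 (log2 difference in KMS-12 -4.86, SE 0.1, edgeR adjusted p = 1.01e-12). RPMI8226 had 23 of the 30 higher and 2 lower (median 1.43), beside 36.3% and 26.3% of all genes. KMS-11 had 23 higher and 1 lower in DMSO (median 1.11), beside 31% and 25.8%. Under JQ1 it had 13 higher and 8 lower (median 0.19), beside 34.1% and 28.3%. The change in that line was called downward for 19 of the 30 and upward for none, beside 7.06% and 6.06% of all genes.

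For amino acid stress genes that ATF4 controls, replicates of KMS-11 JQ1 stood apart. SLC7A11, the cystine importer, read 92.5 CPM in replicate 1 and 12.5 in replicate 2 of KMS-11, 290 and 392 in RPMI8226 and 41.7 and 56.1 in KMS-12. CHAC1, which degrades glutathione, read 29.4 and 4.73 CPM in KMS-11, 54.5 and 69.4 in RPMI8226 and 15.4 and 20.7 in KMS-12. RPMI8226 was above the other lines in both genes, and KMS-12 fell between the KMS-11 replicates. With all libraries 18 of 26 ATF4 genes were higher and 2 lower in RPMI8226 (median 1.71), beside 36.3% and 26.3% of all genes. KMS-12 had 2 higher and 15 lower (median -1.40), beside 31.7% and 33.7%. Without replicate 1 of KMS-11, RPMI8226 had 23 higher and 2 lower and KMS-11 4 higher and 13 lower, and without its replicate 2 the counts were 21 and 3, and 12 and 4. Leaving out either RPMI8226 library left 9 higher and none lower in that line, and leaving out a KMS-12 library left 12. KMS-12 had 7 lower without its replicate 1, 9 without its replicate 2 and 12 to 21 without a library of another line.

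Interferon-stimulated genes were high in 1 of the RPMI8226 libraries, replicate 1, and the results on them are given with and without it. MX1, an antiviral GTPase, read 267 CPM in replicate 1 and 14.5 in replicate 2 of RPMI8226, 15.7 and 13.1 in KMS-11 and 6.65 and 7.3 in KMS-12. IFI44L read 120 and 1.22 CPM in RPMI8226 and at most 2.64 CPM elsewhere. Replicate 2 of RPMI8226 lay inside or near the range of KMS-11 for these genes, while the DMSO means in RPMI8226 were 193 CPM for MX1 and 84 for IFI44L. With both libraries, 18 of 36 tested genes were higher and 2 lower in RPMI8226 (median 3.06), beside 36.3% and 26.3% of all genes. KMS-11 had 9 and 1, beside 34.1% and 28.3%, and KMS-12 3 and 12, beside 31.7% and 33.7%. Without replicate 1 of RPMI8226 the counts in that line were 21 higher and 4 lower (median 1.48), without its replicate 2 they were 34 and 2 (median 3.82), and without any of the other JQ1 libraries 5 or 6 were higher. When replicate 1 or replicate 2 of RPMI8226 was left out, KMS-12 had 25 or 28 lower, and KMS-11 had 18 higher with 9 lower or 14 higher with 16 lower. In DMSO 34 of 39 were higher in RPMI8226 and none was lower, where 33.3% of all genes were higher and 23.6% lower.

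Class I antigen presentation genes had a median above 0 in RPMI8226 and below 0 in KMS-12 in both conditions, nearer 0 under JQ1. The all-gene shares in RPMI8226 were 36.3% higher and 26.3% lower under JQ1 and 33.3% and 23.6% in DMSO. In KMS-12 they were 31.7% and 33.7% under JQ1 and 31.6% and 30.7% in DMSO. Of 15 class I genes, 14 were higher and none lower in RPMI8226 (median 1.26), and none was higher and 11 lower in KMS-12 (median -0.88). In DMSO 15 were higher in RPMI8226 (median 1.74) and 14 lower in KMS-12 (median -1.73). The change of the line difference was called upward for 8 and downward for 3 in KMS-12, against 11.7% and 11.8% of all genes, and upward for 2 and downward for 7 in RPMI8226, against 8.56% and 7.03%. With scaling by library size alone those counts were 5 and 4 in RPMI8226 and 7 and 4 in KMS-12, and the RPMI8226 median was 1.68 in both conditions. For class II genes KMS-11 had 4 of 16 higher and 9 lower (median -1.12), beside 34.1% and 28.3% of all genes. RPMI8226 had 11 higher and 2 lower (median 1.01), while the KMS-12 median of 0.40 became -0.03 with scaling by library size alone. HLA-DQB1, a class II beta chain, ran against the list: it read 0.375 and 0.423 CPM in RPMI8226, 14.3 and 14.1 in KMS-11 and 62.2 and 60.5 in KMS-12.

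NF-kB genes had no common direction, with 12 of 26 higher and 11 lower in KMS-11, 11 and 11 in RPMI8226 and 8 and 13 in KMS-12. In the same order, 34.1% and 28.3%, 36.3% and 26.3%, and 31.7% and 33.7% of all genes were higher and lower. Within the list, BIRC3, an inhibitor of apoptosis, read 690 and 795 CPM in KMS-11, 150 and 170 in RPMI8226 and 41.6 and 36.4 in KMS-12 (log2 difference 3.23, SE 0.09, edgeR adjusted p = 1.05e-11). Its DMSO means were 83 CPM in KMS-11, 228 in RPMI8226 and 62 in KMS-12, and the KMS-11 difference was 3.75 larger under JQ1. Over the list the change in KMS-11 was called upward for 13 of the 26 and downward for 1, beside 6.06% and 7.06% of all genes. REL, an NF-kB subunit, was highest in KMS-12 at 140 and 142 CPM, and the adhesion receptor ICAM1 in RPMI8226 at 363 and 363 CPM against at most 83.4 elsewhere.

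Adhesion genes were mostly lower in KMS-12 and higher in RPMI8226. The all-gene shares under JQ1 were 31.7% higher and 33.7% lower in KMS-12, and 36.3% and 26.3% in RPMI8226. Of 38 adhesion and migration genes 9 were higher and 23 lower in KMS-12 (median -2.17, or -2.02 at the bounds). In RPMI8226 26 were higher and 7 lower (median 2.30, or 2.17). By the stricter criterion 16 of the 38 marked RPMI8226 as higher and 3 as lower, beside 12.3% and 5.83% of all genes. For KMS-12 the marks were 4 and 12, beside 10.4% and 13.4%. KMS-11 had 6 and 4, beside 10.3% and 8.57%. CD44, the hyaluronan receptor, read 366 and 346 CPM in KMS-11, 10.4 and 18.2 in RPMI8226 and 17.3 and 20.5 in KMS-12 and so marked KMS-11 (log2 difference 4.44). ITGB5, an integrin subunit, read 62.4 and 69.4 CPM in KMS-11, 40.4 and 37.6 in RPMI8226 and none in KMS-12. CD28, a costimulatory receptor found on myeloma cells, read 261 and 312 CPM in KMS-11, 345 and 344 in RPMI8226 and 0.753 and 0.604 in KMS-12. TNFRSF17, the antibody and T cell target BCMA, was low in every line under JQ1, at 1.02 and 3.6 CPM in KMS-11, 0.707 and 0.634 in RPMI8226 and 7.22 and 10.6 in KMS-12, while the DMSO means were 59.6 CPM in KMS-11, 34.2 in RPMI8226 and 64 in KMS-12.

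Cancer testis antigens, silent in most adult tissues outside the testis, gave close counts in both conditions. Of the 19 that could be tested, KMS-11 had 4 higher and 9 lower, KMS-12 10 and 0 and RPMI8226 11 and 4 under JQ1, beside 4 and 10, 10 and 2, and 11 and 4 in DMSO. A change of the line difference between conditions was called by edgeR for 0 of them in each line (2, 1 and 1 at an unadjusted p under 0.05 in KMS-11, KMS-12 and RPMI8226), and by DESeq2 for 1 in RPMI8226 and 0 in the others. Among all genes edgeR called a change for 15.6% (RPMI8226), 23.5% (KMS-12) and 13.1% (KMS-11). However, 15 of the 19 had no read in some line under JQ1, which leaves only a bound on their differences. The 0 calls therefore do not show that these differences were unchanged. MAGEB2 had 37.7 and 38.4 CPM in KMS-12 and no read in the other lines, at least 555-fold over KMS-11 and 545-fold over RPMI8226. MAGEA1 had 19.6 and 20.3 CPM in RPMI8226 and no read in the others, and CTAG2 ran from 34.4 and 33.7 CPM in KMS-11 through 14.4 and 18.2 in KMS-12 to 0.333 and 0.159 in RPMI8226. Ribosomal protein genes differed by less. In KMS-11 48 of 72 were lower and 5 higher (median -0.51), beside 28.3% and 34.1% of all genes. In RPMI8226 42 were higher and 7 lower (median 0.31), beside 36.3% and 26.3%. Without replicate 1 of RPMI8226 that line had 50 higher and 3 lower (median 0.53), and without its replicate 2 it had 32 and 12 (median 0.18).

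**Figure D3:**
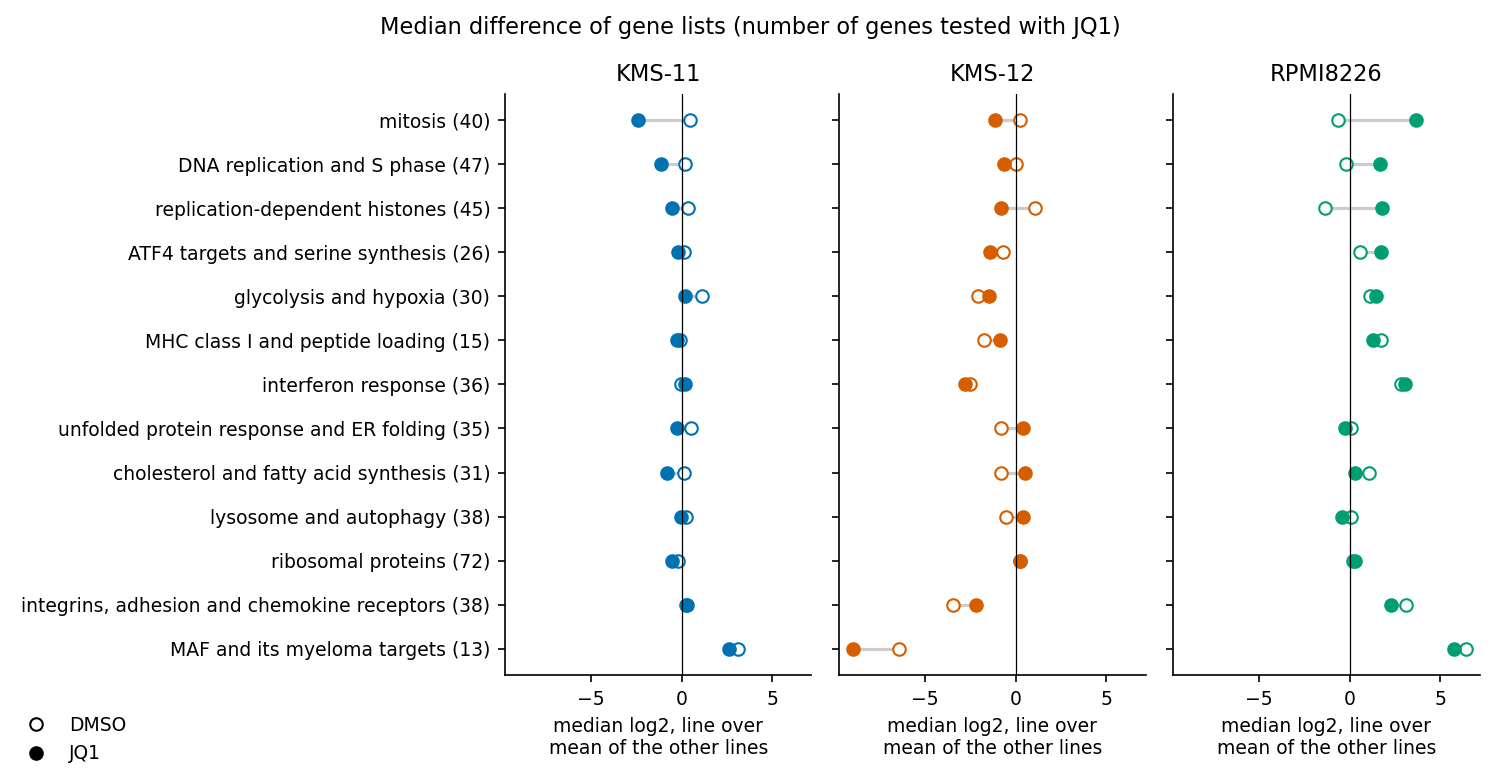
Median log2 difference of each line from the mean of the others for 13 gene lists, open symbols for DMSO and filled symbols for JQ1. In RPMI8226 the mitosis median lies at -0.64 in DMSO and at 3.64 under JQ1, and in KMS-12 the unfolded protein response and cholesterol medians pass from below 0 to above 0.

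Of the line differences seen in DMSO, most were still present. Taking the genes that passed the filter over all 12 libraries, 8381 of 13880 DMSO marks (60.4%) were marks of the same line and direction under JQ1, which is 64.4% of 13010 JQ1 marks. A gene can mark more than 1 line. Of all genes, 47.9% marked a line in DMSO: 9.24% as higher and 8.93% as lower in KMS-11, 10.9% and 6.02% in RPMI8226 and 11.1% and 12.9% in KMS-12. Under JQ1, 45.4% of the same genes marked a line. Marks were kept for 1499 of 2171 genes higher (69%) and 1206 of 2099 lower (57.5%) in KMS-11, for 1494 of 2596 (57.6%) and 1824 of 3029 (60.2%) in KMS-12, and for 1607 of 2571 (62.5%) and 751 of 1414 (53.1%) in RPMI8226. Over all genes that marked a line in DMSO, the median log2 difference was nearer 0 under JQ1 than in DMSO in each line and direction. It was 4.08 under JQ1 and 4.18 in DMSO for the genes higher in KMS-11, 2.61 and 3.26 for those higher in KMS-12, and 3.82 and 4.52 for those higher in RPMI8226. For lower genes it was -2.82 and -3.31 in KMS-11, -2.21 and -2.73 in RPMI8226, and -3.74 and -3.84 in KMS-12. Over all genes that marked a line under JQ1 the medians lay the other way, with 4.54 under JQ1 and 3.17 in DMSO for the genes higher in KMS-11. Each set was chosen by its difference in 1 of the conditions, so these medians are descriptions. Of the 5499 DMSO marks that were not JQ1 marks, 4938 had the same sign under JQ1, and the change in the difference itself was called for 1356 (24.7%). Of the 4629 JQ1 marks that were not DMSO marks, 4035 had the same sign in DMSO, and the change was called for 2167 (46.8%). A change of the line difference was called for 30.1% of all genes by a joint interaction test over the 3 lines. By the test for each line it was called for 13.1% in KMS-11, 15.6% in RPMI8226 and 23.5% in KMS-12. The kept share was lowest without replicate 1 of KMS-12 JQ1, at 53.6%.

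**Figure D4:**
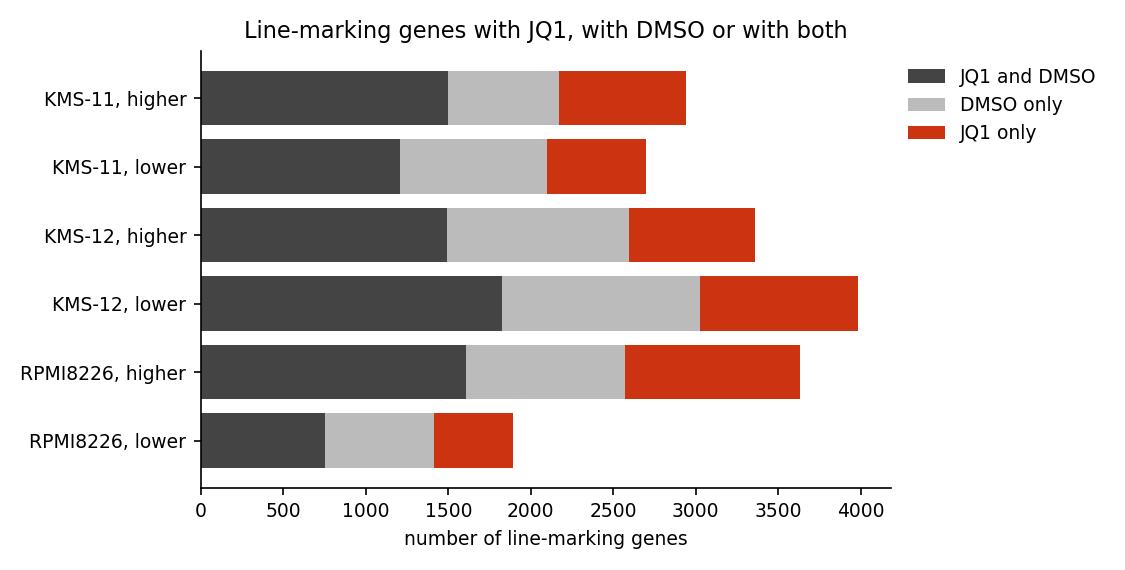
Numbers of line-marking genes for each line and direction, split into those that mark the line in both conditions, in DMSO alone and under JQ1 alone. In KMS-11, 1499 genes were higher in both conditions, 672 in DMSO alone and 771 under JQ1 alone, and in each bar the genes of both conditions are the largest part.

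Line differences that turned were few. In all, 26 genes marked a line in opposite directions in the 2 conditions, 12 of them in KMS-12 and 14 in RPMI8226. Beside CDKN1A, KMS-12 went from lowest to highest for ZFP36, which destabilises cytokine mRNAs: its DMSO means were 60.9, 16.4 and 84.5 CPM in KMS-11, KMS-12 and RPMI8226, and under JQ1 it read 382 and 408 CPM in KMS-12, 129 and 146 in KMS-11 and 40.4 and 34.4 in RPMI8226. DUSP5, a phosphatase of ERK, read 309 and 300 CPM in KMS-12, 34.8 and 31.2 in KMS-11 and 111 and 89.8 in RPMI8226, after a DMSO mean of 18.9 CPM in KMS-12. INSIG1, which restrains cholesterol synthesis, and the small heat shock protein HSPB1 turned in the same direction in KMS-12. In RPMI8226 the turn from lower to higher took in CDC45, the centromere protein CENPW and 4 named histone genes (H2AC21, H2BC13, H2AC13 and H2AC17).

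Other genes marked a line under JQ1 and not in DMSO, with the change itself called. AQP3, a water and glycerol channel, read 713 and 667 CPM in KMS-12, 33.8 and 72.2 in KMS-11 and 5.04 and 5.23 in RPMI8226 under JQ1, while its DMSO means in KMS-12 and KMS-11 were 114 and 104 CPM. LSP1, an actin-binding protein of leukocytes, stood in KMS-11 at 0.0426 and 0.0986 CPM against a DMSO mean of 13.1. MYBPC2, a muscle myosin-binding protein, read 107 and 132 CPM in KMS-12 and at most 2.91 CPM elsewhere, against DMSO means of 18.3 in KMS-12, 35.1 in KMS-11 and 9.51 in RPMI8226. The RPMI8226 difference was no longer called under JQ1 for SAT1, a polyamine acetyltransferase, whose DMSO means were 17.2, 25 and 312 CPM in KMS-11, KMS-12 and RPMI8226: under JQ1 it read 25.7 and 26.3, 57.3 and 58.5, and 42.9 and 40.7 CPM in the same order.

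As whole transcriptomes the lines were about as far apart under JQ1 as in DMSO. The distance is the root mean square difference in log2 CPM (prior count 2) over 23493 genes, taken for each of the 4 library pairs of 2 lines. KMS-11 and KMS-12 were 2.292 apart under JQ1 (pairs from 2.279 to 2.304) and 2.346 in DMSO (2.329 to 2.365), a ratio of 0.977. KMS-12 and RPMI8226 were 2.23 apart (2.219 to 2.241) and 2.285 in DMSO (2.273 to 2.295), a ratio of 0.976. For both of these pairs of lines all JQ1 values lay below all DMSO values. KMS-11 and RPMI8226, the nearest lines, were 2.011 apart (1.99 to 2.035) and 2.023 in DMSO (2.004 to 2.04), and the ranges overlapped. Replicates were between 0.417 and 0.576 apart, and a line under JQ1 lay 1.123 (KMS-11), 1.192 (KMS-12) or 1.026 (RPMI8226) from itself in DMSO. The direction turned with the genes taken: over 10210 genes with a mean of at least 10 CPM the lines were further apart under JQ1, at 2.231 against 2.152, 1.845 against 1.715 and 2.222 against 2.109, with no overlap between conditions.

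**Figure D5:**
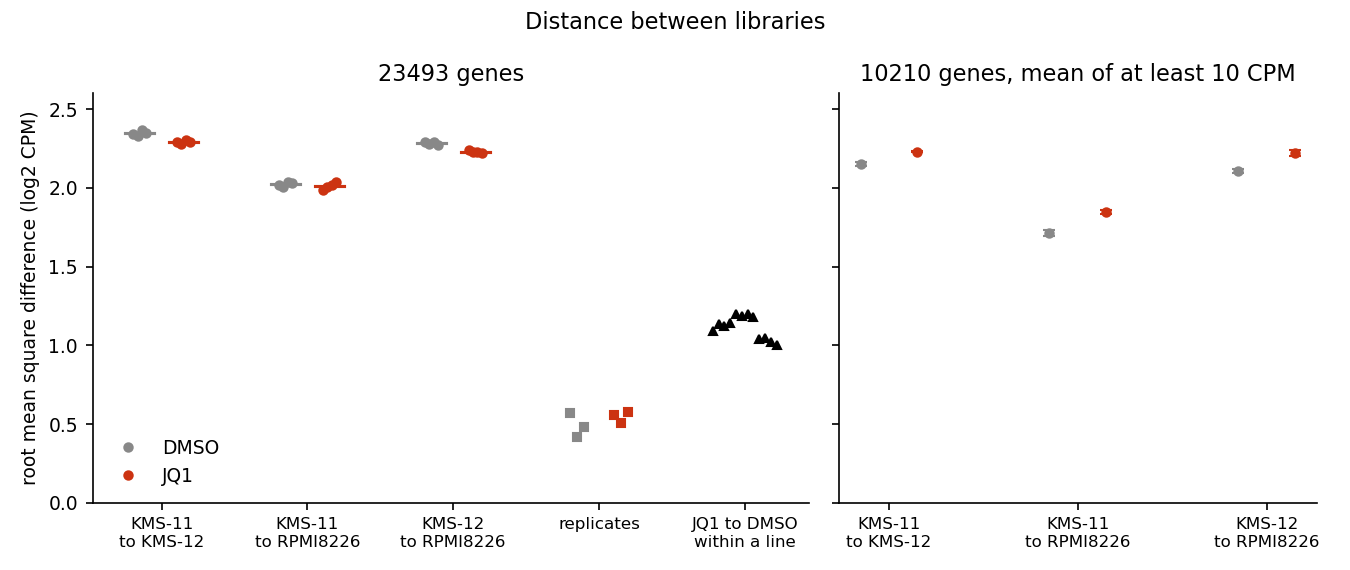
Root mean square log2 distance between lines for each library pair (left, 23493 genes) and over the 10210 genes with a mean of at least 10 CPM (right, mean with the lowest and highest of 4 pairs), under JQ1 and DMSO, with distances between replicates and from JQ1 to DMSO within a line for scale. On the left the JQ1 distances lie at or just below the DMSO distances, and on the right they lie above them.

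A further reference is the distance that would follow if each line's response to JQ1 were unrelated to its starting level, which adds the square of the difference in responses to that of the DMSO distance. With the spread between replicates taken off, those values were 2.503 for KMS-11 and KMS-12, 2.148 for KMS-11 and RPMI8226 and 2.488 for KMS-12 and RPMI8226. The distances under JQ1, treated in the same way, were 2.229, 1.929 and 2.163, which is 0.891, 0.898 and 0.869 of those references. This reference was taken over the 23493 genes at a prior count of 2 alone. It was not taken over the genes with a mean of at least 10 CPM, where the lines were further apart under JQ1 than in DMSO (mean ratio 1.054). Whether the shortfall holds there was not tested. A gene at the floor of the scale in a line cannot fall further there, so response and starting level are not independent on this scale. How much of the shortfall that makes up was not tested, and the shortfall is not read as the lines growing alike. Differences of a line from the others correlated between conditions across genes with Pearson r of 0.878 in KMS-11, 0.850 in RPMI8226 and 0.873 in KMS-12 (Spearman 0.802, 0.776 and 0.789), with slopes of 0.857, 0.836 and 0.847 in the same order. These are across genes, which are not independent replicates, and are given as a description with the libraries of JQ1 and DMSO separate. Of the sum of squares over the 12 libraries, 80.9% lay between lines, 9.52% between treatments, 5.8% in their interaction and 3.74% between replicates. The 10670 genes that marked a line under JQ1 by the filter over 12 libraries held 92.6% of the squared distance between lines, and the 1000 genes with the largest share held 37.2%.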

How the data were processed

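Stranded total RNA libraries had been made after removal of ribosomal RNA, per the labels' protocols. The deposited table holds raw counts, whole numbers of reads per Ensembl gene ID and library. DESeq2, MACS2, hg38 and GRCh38.p13 are named in the submitters' processing notes, without a role. No source used here gives the aligner, the counter, the annotation release or the use of strand, so reads of overlapping genes and near-identical copies are uncertain. Symbols were found for 60437 of 60666 IDs, and positions come from GENCODE 29.

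In R 4.3.3, edgeR 4.0.16 was run on the deposited counts of the 6 JQ1 libraries, with a mean for each line, filterByExpr (minimum count 10, minimum total 15), TMM scaling and robust quasi-likelihood F tests. The threshold was a Benjamini-Hochberg adjusted p of 0.05. The filter kept 20309 genes (33.5%) and at least 99.87% of the counts. DMSO libraries were fitted alike over the 23493 genes that passed the filter on 12 libraries, and 1 fit of all 12 gave the interaction. For a line without reads, a floor of 3 counts over its libraries gave a bound, and for 1 to 3 reads an exact 95% counting interval is given. Both, and the floor for a single library (between 0.107 and 0.178 CPM), cover counting error only. Chi-square tests of the counts separated all replicate pairs (5.74 to 23.51 per degree of freedom), so none was counted as a single library.

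The members and the 33 gene lists were chosen with earlier results of these data known. Named genes are the 8 highest and 4 lowest protein-coding genes that mark each line by difference from the nearer line (at least 5 CPM, libraries not overlapping), up to 3 long non-coding RNA genes, the 4 genes of largest difference that mark a line in 1 condition alone with the interaction called, from each list the (up to) 4 members of smallest p, and 17 genes always taken. Of these, those that show each pattern are printed. Other genes in the text (MCL1, ZFP36, DUSP5 and further list members given as examples) were chosen after their values were seen. Promoters are the 250 bases before RefSeq starts (GRCh38.p14). In simulated counts of 20308 genes, 50 genes at each fold were changed in RPMI8226, drawn from those above a read threshold. No other gene differed between lines. Of genes changed 1.5-fold 50% were called, with 82% at 2-fold, 96% at 4-fold and 100% at 8-fold, and 8.89% of 180 calls were false. The shares found as marks were 0%, 24%, 92% and 100% in the same order. In the JQ1 libraries 83.6% of genes differed between lines, and the simulation does not cover that setting or genes with few reads. Other scalings, filters, priors and distance measures, DESeq2 1.42.0, a replicate block, a fit of 12 libraries and leaving out each library were tried as alternatives. Some genes are not reported here.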

Additional observations from a re-analysis of the deposited data

Results flagged for a closer look

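The difference of a line from the other lines changed with JQ1, by the interaction test over 12 libraries (edgeR adjusted p under 0.05), for 3082 genes in KMS-11, 5525 in KMS-12, 3664 in RPMI8226 and 7070 in at least 1 of these. The values that follow are the change of the log2 difference, JQ1 against DMSO. They are given for genes that marked a line in 1 condition alone, with that change called. These genes were picked by their difference from the nearer line in that condition, and not by the size of the change.

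In KMS-11, genes that came to mark the line under JQ1 were TMEM255A (4.64), the phosphatase PTP4A3 (-3.43), the dynamin DNM3 (3.51) and LSP1 (-6.90). DNM3 read 30.8 and 28.2 CPM in KMS-11 under JQ1 and at most 1.64 CPM in the other lines, with a KMS-11 DMSO mean of 5.57 CPM. Genes that no longer marked KMS-11 were the ETS factor ETV4 (5.55), RAB26 (2.78), NELL2 (3.65) and ITM2C (-1.84).

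In KMS-12, new marks were MYBPC2 (6.30), RIMS3 (-4.96), the nucleotide receptor P2RY6 (8.98) and AQP3 (3.67). P2RY6 read 31.7 and 29.2 CPM in KMS-12 under JQ1, with a DMSO mean of 0.718 CPM, and had no read in KMS-11 under JQ1. Marks lost were the chemokine CCL3 (5.51), the netrin receptor DCC (4.96), the histone gene H3C8 (-3.61) and SREBF1 (2.80), a transcription factor of lipid synthesis that read 111 and 132 CPM in KMS-12, 68.5 and 46.9 in KMS-11 and 300 and 251 in RPMI8226 under JQ1.

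In RPMI8226, new marks were PLAAT4 (-6.15), RRM2 (6.33), DTL (4.40), which directs proteins to destruction during S phase, and the kinetochore protein SKA1 (5.41). PLAAT4 read 1.25 and 0.582 CPM in RPMI8226, 59.2 and 53.2 in KMS-11 and 215 and 185 in KMS-12 under JQ1. Marks lost were the histone gene H2AC16 (8.28), SAT1 (-3.81), ATG9B (-3.60) and the epithelial transcription factor ELF3 (-4.02).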

How the results depend on the processing

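Over 14 settings, 490 results on single genes gave 6784 values, of which 6605 kept direction and call, 175 kept the direction alone and 4 reversed, all with library size alone: CCND3 in KMS-12 (-0.07), FLI1 in KMS-12 (-0.02) and RPMI8226 (0.05) and RPLP2 in RPMI8226 (0.24). That scaling also gave 4100 genes higher in KMS-12 and 2872 lower in RPMI8226, kept shares of 57.6% (KMS-11 59.6%, KMS-12 54.7%), 11281 genes whose line difference changed with JQ1 (KMS-12 9766, RPMI8226 7789), and distance ratios, JQ1 over DMSO, of 0.962 as a mean and 0.925 for KMS-11 to KMS-12. With a mean of at least 10 CPM, which tests fewer genes, calls were 6959 in KMS-11 (3665 higher, 3294 lower), 7299 in KMS-12 (3541, 3758) and 7071 in RPMI8226 (3764, 3307), with 8672 in any comparison. Marks then numbered 3298 (1135, 1782 and 1155 for KMS-11, KMS-12 and RPMI8226), kept shares were 66.7% (68.4%, 66.2%, 65.5%) and distance ratios 1.054 (KMS-11 to KMS-12 1.037, KMS-11 to RPMI8226 1.076, KMS-12 to RPMI8226 1.054). Kept shares were 57.1% (59.4%, 56.7%, 55.2%) with no filter beyond 1 read and 63.2% (65.8%, 62.9%, 60.7%) at a fold of 4. In the same order, distance ratios were 0.996 (0.992, 1.005, 0.993) with a prior count of 0.5, 0.997 (0.996, 1.011, 0.988) over protein-coding genes, 1.010 (0.988, 1.021, 1.024) by the median absolute difference and 0.922 (0.916, 0.961, 0.898) by 1 minus Spearman's rho. A prior count of 10 gave 0.969 for KMS-11 to KMS-12 and 0.970 for KMS-12 to RPMI8226, and taking off replicate noise, an alternative chosen after seeing the data, gave 0.974 as a mean, 0.972 and 0.965. The cause of these shifts was not tested, and the distance between lines has no direction that held under all measures. Leaving out each library gave kept shares from 53.6% to 62.6% (KMS-11 55.9% to 64.8%, KMS-12 51.8% to 61.9%, RPMI8226 51.6% to 62.8%), and distance ratios from 0.972 to 0.983 for KMS-11 to KMS-12 and from 0.987 to 1.001 for KMS-11 to RPMI8226, where the remaining library of a group was assumed to vary like the others. Correlations of deviations between groups by replicate number ran from -0.073 to 0.219 over 15 pairs of groups, 3 of them over 0.1. The highest joined DMSO and JQ1 of the same line, RPMI8226 (0.219) and KMS-11 (0.168), while KMS-12 had 0.033. The remaining pair over 0.1 was KMS-11 DMSO with KMS-12 JQ1 (0.115). Whether replicate numbers mark paired cultures within a line was not tested further. With a replicate block, 6719 genes were higher and 5556 lower in KMS-11, 7183 and 5152 in RPMI8226, 6303 and 6629 in KMS-12. That block gave 9660 marks, a kept share of 59.8% and 7153 changed differences. At these depths, levels under about 0.178 CPM in 1 library cannot be told from 0.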

Other observations

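The levels of genes by chromosome differed between lines in the same way in both conditions, over 11934 protein-coding genes with a mean of at least 1 CPM. KMS-12 had a median log2 difference of -0.86 for the 526 genes of chromosome 5 under JQ1 and -0.86 in DMSO, with 71.1% of them called lower. Over all the protein-coding genes taken, the KMS-12 median was -0.05, with 35.7% called higher and 38.5% lower. For chromosome 11 the KMS-12 medians were 0.62 and 0.53, and 62.7% of the genes were called higher. The RPMI8226 medians were 0.65 and 0.55 for chromosome 5, 0.58 and 0.56 for chromosome 22, 0.56 and 0.51 for chromosome 18 and 0.46 and 0.47 for chromosome 16. In KMS-11 they were 0.47 and 0.47 for chromosome 10, 0.40 and 0.56 for chromosome 21 and -0.49 and -0.35 for chromosome 11. The copy number of these chromosomes was not tested.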
